A study of Homo sapiens with 2 samples.

Results

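The 49 genes described here encode the core of the cell cycle engine: cyclins, cyclin-dependent kinases (CDKs), CDK inhibitors, pocket proteins, E2F and DP transcription factors, and the proteins that switch CDKs on or off. They were picked by gene symbol from a written list, drawn up with earlier results of these data known, and all 49 were found among the 56690 gene symbols of the count table. Of these, 48 had 10 or more reads in at least 1 library. The exception was CCND2, a D-type cyclin, with 1 read from the vector control and 0 from PRMT5 overexpression.

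RNA-seq libraries were made from poly(A) RNA of Tu212, an established epithelial-derived line from squamous carcinoma of the head and neck. One culture had received the empty pEZ plasmid (vector control) and the other the pEZ plasmid carrying PRMT5 (PRMT5 overexpression), each for 48 h. The labels name no other allele or agent, and they do not say whether the cells were 1 clone or for how long the plasmid was kept. With 1 library per group, of 14119997 and 19908258 reads assigned to genes, there was no replicate check, no p-value is given, and each value describes these libraries.

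PRMT5 itself, an arginine methyltransferase, was at 145 CPM (a gene's reads relative to the scaled size of its library) in the vector control and at 293 CPM under PRMT5 overexpression, a log2 ratio of 1.01 (counting interval 0.94 to 1.09). All 12 squamous epithelial markers were measured, led by KRT5 at 4575 and 5077 CPM. Of 10 fibroblast markers, 6 passed 10 reads. The 10 had a summed level of 99.4 and 82.2 CPM, of which COL1A1 made up 92.6 and 79.0 CPM. At least 2-fold lower under PRMT5 overexpression were 3 of the 6, where 1.94% of all genes were. These were COL1A2 (26 and 7 reads), COL3A1 (11 and 2) and DCN (12 and 0). Each reached 10 reads in the vector control alone, so the floor favours a lower value and no trend is read from them. The 10 leukocyte markers summed to 21.9 and 17.2 CPM with 2 past 10 reads, and CD68 made up 20.1 and 16.2 CPM of that. The 6 endothelial markers summed to 6.03 and 4.51 CPM, again with 2 past 10 reads. FAP, CD3D, MS4A1, HLA-DRA, CDH5 and KDR had no read in either library. A part of these cells in the results below was not tested, and in bulk RNA fewer cells of a type and less RNA per cell cannot be told apart.

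As background, D-type cyclins with CDK4 or CDK6 begin the phosphorylation of the retinoblastoma protein, and cyclin E with CDK2 completes it, which frees E2F factors to switch on the genes of S phase. Cyclin A and cyclin B with CDK1 then carry cells through G2 and into mitosis, while inhibitors of the INK4 and CIP/KIP families hold CDKs back. PRMT5 is known to meet this pathway at the protein level, since it methylates E2F1 and its partner MEP50 is phosphorylated by cyclin D1 with CDK4. In squamous carcinoma of the head and neck, cyclin D1 is often amplified and the INK4 locus often lost.

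The promoters below are shown because E2F motifs are known from genes read at the G1/S border, and the CHR and CCAAT box from genes read in G2 and mitosis. Sequences are from RefSeq on GRCh38.p14, 5′ to 3′ on the strand of the gene, and only bases upstream of exons in GENCODE release 29 are printed. Capitals mark matches, on either strand, to the E2F motif (TTTNNCGC), to the cell cycle homology region (CHR, TTTGAA) and to the CCAAT box (CCAAT). E2F1, the founding activator E2F, is shown at chr20:33686405-33686635 on the minus strand, E2F2, another activator, at chr1:23531234-23531483 on the minus strand, and CDC25A, the phosphatase that activates CDK2, at chr3:48188418-48188667 on the minus strand. CDK1, the mitotic kinase, is shown at chr10:60778081-60778330 on the plus strand, CKS2, a small CDK-binding subunit, at chr9:89310945-89311194 on the plus strand, and CDKN3, a phosphatase that acts on CDK1 and CDK2, at chr14:54396757-54396848 on the plus strand.
E2F1: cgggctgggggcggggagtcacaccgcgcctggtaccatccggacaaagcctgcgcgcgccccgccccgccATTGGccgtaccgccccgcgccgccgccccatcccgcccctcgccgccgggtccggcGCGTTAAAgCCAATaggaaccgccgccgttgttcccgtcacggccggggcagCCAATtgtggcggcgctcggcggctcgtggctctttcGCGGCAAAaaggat
E2F2: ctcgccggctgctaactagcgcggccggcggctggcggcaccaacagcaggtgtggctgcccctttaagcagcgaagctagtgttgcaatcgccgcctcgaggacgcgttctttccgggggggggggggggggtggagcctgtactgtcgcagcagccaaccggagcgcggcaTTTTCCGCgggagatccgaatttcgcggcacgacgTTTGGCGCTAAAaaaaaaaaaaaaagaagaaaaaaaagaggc
CDC25A: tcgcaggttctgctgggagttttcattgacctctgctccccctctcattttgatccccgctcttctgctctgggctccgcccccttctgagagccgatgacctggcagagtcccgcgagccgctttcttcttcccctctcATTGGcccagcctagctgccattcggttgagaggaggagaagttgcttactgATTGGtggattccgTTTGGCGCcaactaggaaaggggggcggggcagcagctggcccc
CDK1: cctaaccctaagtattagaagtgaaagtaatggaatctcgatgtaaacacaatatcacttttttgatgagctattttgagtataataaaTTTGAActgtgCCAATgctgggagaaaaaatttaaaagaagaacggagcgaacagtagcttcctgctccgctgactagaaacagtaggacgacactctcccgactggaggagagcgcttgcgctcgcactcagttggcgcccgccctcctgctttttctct
CKS2: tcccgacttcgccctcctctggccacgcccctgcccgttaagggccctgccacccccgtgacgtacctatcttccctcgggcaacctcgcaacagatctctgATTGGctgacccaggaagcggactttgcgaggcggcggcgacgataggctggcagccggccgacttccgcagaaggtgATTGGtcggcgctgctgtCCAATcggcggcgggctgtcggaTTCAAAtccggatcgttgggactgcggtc
CDKN3: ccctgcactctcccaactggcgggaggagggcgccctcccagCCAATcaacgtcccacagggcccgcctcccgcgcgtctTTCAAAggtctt

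In the 250 bases upstream of the gene start, 41 of the 49 genes had a RefSeq sequence. The E2F motif occurred in 7 of the 41 (CDKN2D, RBL1, E2F1, E2F2, E2F3, TFDP1 and CDC25A), a share of 17.1%, and in 5.93% of 27305 promoter windows of the same length. In E2F2, a pair of matches overlap. The log2 ratios of the 7 genes ran from -0.05 to 0.22, with a median of 0.0032. The CHR occurred in 7 genes (CCNB2, CCNC, CDK1, CDKN3, E2F3, CKS1B and CKS2), again 17.1%, and in 13.6% of all windows, and their log2 ratios ran from -0.22 to 0.15 with a median of -0.06. Some of these matches lie in bases that GENCODE counts as exon and are not printed. The CCAAT box occurred in 17 genes, or 41.5%, and in 33.0% of all windows. Neither the genes with an E2F motif nor those with a CHR lay on 1 side of 0. MYC, which binds the E-box (CACGTG) together with MAX, stood at 114 CPM in the vector control against 7.71 CPM under PRMT5 overexpression. The E-box occurred in 6 of the 41 genes (CCNB1, CCNT1, CDK4, CDK7, CDK8 and CDKN2C), or 14.6%, against 6.49% of all windows, and their log2 ratios ran from -0.16 to 0.22. The GC box (GGGCGG) occurred in 31 of the 41 genes, or 75.6%, against 42.3% of all windows. A part of base composition in the shares of these motifs was not tested. These matches are descriptions of letters in a window and not binding sites.

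The comparison asked how transcripts of the cell cycle engine stood when PRMT5 was overexpressed. None of the 48 measured genes differed by 1.5-fold or more: 0 were higher and 0 lower, where 7.06% of all 17777 genes with 10 or more reads were higher and 5.33% lower by that much. At 2-fold the count was likewise 0 and 0, where 2.90% of all genes were higher and 1.94% lower. Few genes with so many reads do. Among 11579 genes whose mean of both libraries lay between 99.5 and 5943 reads, the range of the 48, the shares were 2.18% and 2.08% at 1.5-fold and 0.674% and 0.708% at 2-fold. The median log2 ratio (PRMT5 overexpression minus vector control, log2 CPM with a prior count of 1) was -0.0067 over the 48, 0.0022 over all genes and -0.0077 over genes of like read number. Of the 48, 30 lay within 1.1-fold (62.5%, against 57.2% of genes of like read number), and 22 were above and 26 below 0.

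Smaller differences were beyond counting error for some of them. The 95% Clopper-Pearson interval of the log2 ratio lay above 0 for 7 genes and below 0 for 12, which is 14.6% and 25% of the 48. Among genes of like read number the same held for 16.8% above and 18.0% below, and over all genes for 14.3% on each side. The 48 genes had a median of 876 reads against 629 for genes of like range, so their intervals were narrower. Reads are not independent molecules, so intervals cover counting error only and leave out the spread between cultures. These counts depend on the scaling: with factors taken from all genes rather than from those with 10 or more reads they were 8 and 9. Under all 4 scalings run, 6 of the 7 had an interval above 0 and 9 of the 12 one below, the exceptions being CDC25B above and CCNC, CDK1 and CDK6 below.

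**Figure D1:**
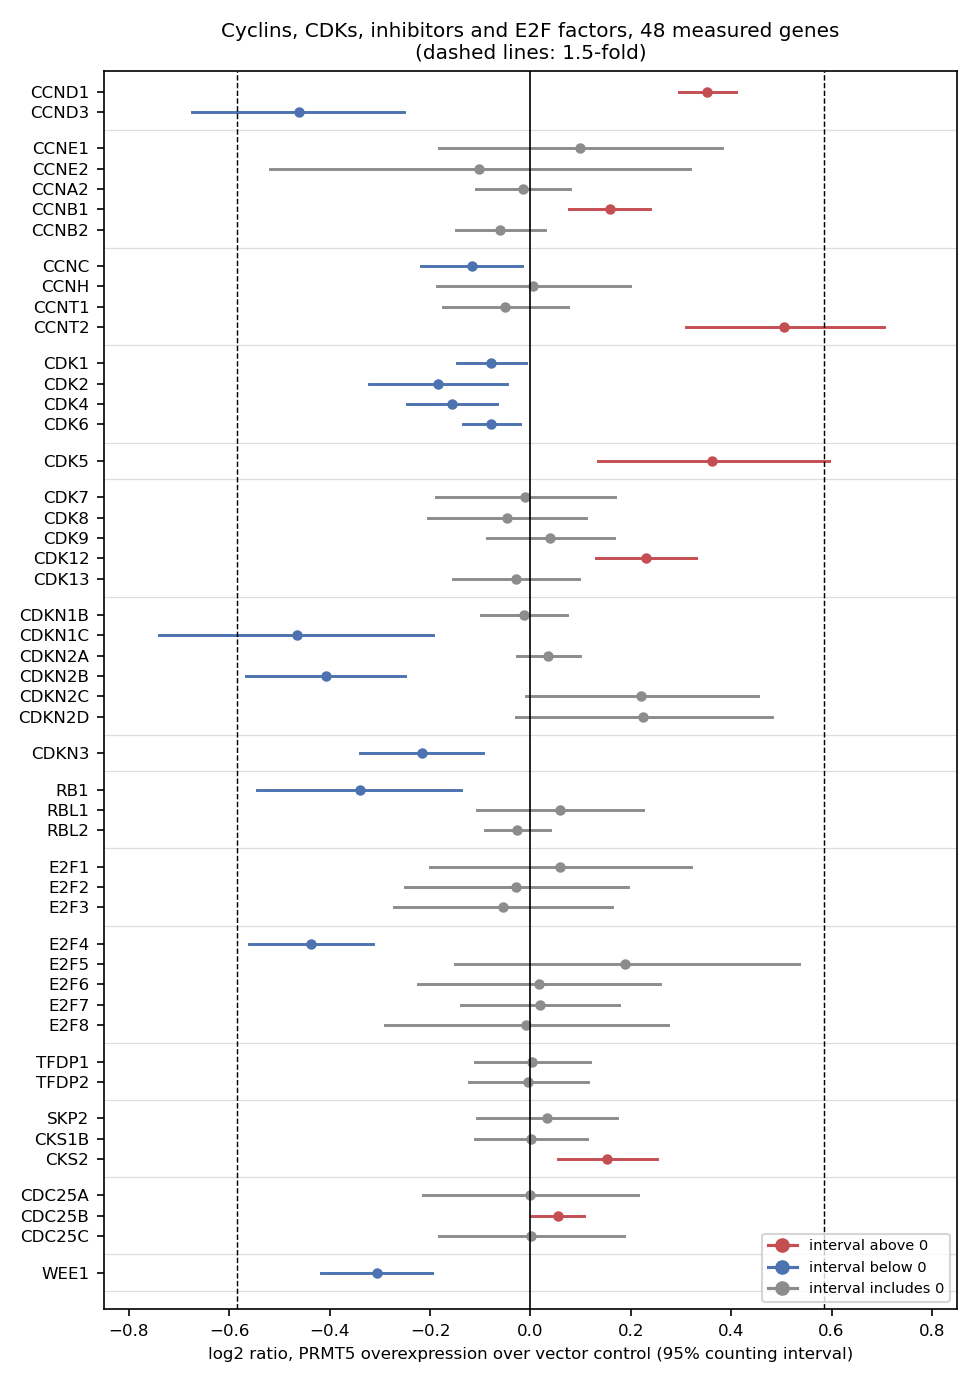
Log2 ratio (PRMT5 overexpression over vector control, x axis) of the 48 measured genes grouped by role, with points for the value and lines for the 95% counting interval. No point lies beyond the dashed 1.5-fold lines, and CCNT2 at 0.50 and CDKN1C at -0.47 lie farthest out.

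**Figure D2:**
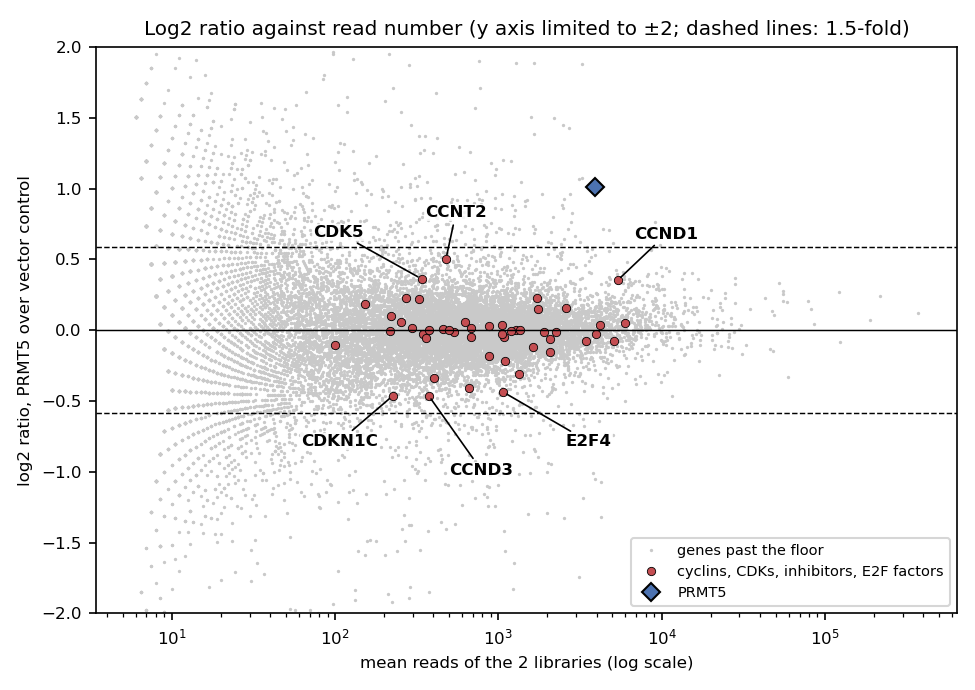
Log2 ratio (y axis, shown from -2 to 2) against the mean reads of both libraries (x axis, log scale) for all genes past the floor of 10 reads in grey, the 48 cell cycle genes in red and PRMT5 as a blue diamond. The red points stay inside the dashed 1.5-fold lines, and PRMT5 stands at 1.01.

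The D-type cyclins, which couple growth signals to CDK4 and CDK6, went apart. CCND1 (ENSG00000110092, chromosome 11, 69641087 to 69654474 in GRCh38) stood at 273 CPM in the vector control against 349 CPM under PRMT5 overexpression, from 3895 and 6876 reads. The log2 ratio of CCND1 was thus 0.35 (0.30 to 0.41). CCND3 (ENSG00000112576, chromosome 6, 41934933 to 42050357) went the other way, at 26.2 and 19.0 CPM from 374 and 375 reads, with a log2 ratio of -0.46 (-0.67 to -0.25). Their log2 ratios differed by 0.81, with an exact conditional counting interval of 0.60 to 1.03. CCND1 held 91.2% (90.3% to 92.1%) of D-type cyclin reads in the vector control and 94.8% (94.3% to 95.3%) in the other library. CCND2, with 1 and 0 reads, lay under the limit that a count of 0 allows (3 reads, or 0.210 and 0.152 CPM), so no ratio is given. CCND1 shares 497 exon bases with LTO1 on the other strand, and with those reads added its log2 ratio was 0.33.

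The cyclins of S phase and mitosis differed little. CCNE1 and CCNE2, the partners of CDK2 at the G1/S border, had log2 ratios of 0.10 and -0.10, and both intervals included 0 with 87 to 262 reads per library. CCNA2, the cyclin of S phase and G2, was at 113 and 112 CPM, with a log2 ratio of -0.015 (-0.11 to 0.08). CCNB1, which drives entry into mitosis, was at 143 and 160 CPM, and its log2 ratio of 0.16 had an interval of 0.08 to 0.24. Its relative CCNB2 was at 126 and 120 CPM, with a log2 ratio of -0.06 (-0.15 to 0.03). The share of CCNB1 in the reads of both B-type cyclins was 53.3% (51.7% to 54.9%) in the vector control and 57.0% (55.7% to 58.3%) in the PRMT5 overexpression library, so these intervals did not overlap.

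All 4 cell cycle CDKs were lower in the PRMT5 overexpression library, by 1.14-fold or less, where 8814 of all 17777 genes lay below 0. The 4 intervals lay below 0, as did those of 14.3% of all genes and 18.0% of genes of like read number. For CDK1 and CDK6 whether the interval reached 0 depended on the scaling, and the group was not tested. CDK2, which fires S phase, was at 55.5 and 48.8 CPM, with a log2 ratio of -0.18 (-0.32 to -0.05). CDK4, which phosphorylates RB1 with D-type cyclins, was at 129 and 116 CPM, with a log2 ratio of -0.16 (-0.25 to -0.07). Both keep an interval below 0 under each scaling run. CDK6, the close relative of CDK4, was at 310 and 293 CPM and CDK1 at 209 and 198 CPM, each with a log2 ratio of -0.08. Their upper bounds of -0.02 and -0.0087 crossed 0 when the scaling factors were taken from all genes with no floor, where both ratios were -0.05. CDK4 shares 1369 exon bases with TSPAN31, a tetraspanin gene on the other strand, which was at 32.7 and 22.6 CPM. Summed with it, CDK4 had a log2 ratio of -0.23. With CDK4 counted alone, the share of CDK6 in the reads of CDK4 and CDK6 was 70.6% (69.4% to 71.7%) and 71.7% (70.7% to 72.7%), and these intervals overlapped. CDK4 had 1839 and 2281 reads alone and 2306 and 2727 once summed with TSPAN31, so whether the share intervals overlap depends on the TSPAN31 reads.

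CDK5, a kinase best known from neurons, was at 17.1 and 22.0 CPM, with a log2 ratio of 0.36 (0.13 to 0.60). It shares 331 exon bases with SLC4A2 on the other strand, which held 1207 and 1722 reads, and summed with it the log2 ratio was 0.10 (0.0075 to 0.20), so the size of the CDK5 value is uncertain.

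Among the cyclins and CDKs that serve transcription, CCNT2 and CDK12 had intervals above 0, as did 14.3% of all genes and 16.8% of genes of like read number. Of all genes, 91.5% had a log2 ratio at or below that of CCNT2, and 80.6% one at or below that of CDK12. CCNT2, a cyclin partner of CDK9 in the elongation factor P-TEFb, had the highest log2 ratio of the 48. CCNT2 (ENSG00000082258, chromosome 2, 134918235 to 134959342) has no exon base in common with another counted gene. Its level was 22.7 CPM in the vector control against 32.2 CPM under PRMT5 overexpression, from 323 and 634 reads, which is 1.42-fold and a log2 ratio of 0.50 (0.31 to 0.70). The other T-type cyclin, CCNT1, was at 65.4 and 63.2 CPM with a log2 ratio of -0.05 (-0.17 to 0.07), and CDK9 at 60.9 and 62.6 CPM with 0.04 (-0.09 to 0.17). CCNT2 held 25.7% (23.3% to 28.2%) of T-type cyclin reads in the vector control and 33.7% (31.6% to 35.9%) in the other library. With deposited FPKM and a pseudocount of 1 its log2 ratio was 0.28, since 1 is close to its FPKM values of 1.21 and 1.69.

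CDK12, which phosphorylates RNA polymerase II during elongation, was at 92.1 and 108 CPM with a log2 ratio of 0.23 (0.13 to 0.33). Its paralogue CDK13 was at 62.8 and 61.6 CPM with a log2 ratio of -0.03 (-0.15 to 0.10), and CDK12 held 59.5% (57.4% to 61.5%) and 63.7% (62.0% to 65.3%) of the reads of both. CDK7 and CCNH, the catalytic and cyclin subunits of the CDK-activating kinase, had log2 ratios of -0.01 and 0.0059. In the Mediator kinase module, CDK8 was at -0.05 and its cyclin CCNC at -0.12, and the CCNC interval of -0.22 to -0.02 reached 0 with factors from all genes.

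Of the 6 CDK inhibitors among the 49 genes, 2 had intervals below 0 and 0 above, and the group was not tested. Over all genes 14.3% lay on each side, and among genes of like read number 16.8% above and 18.0% below. CDKN1A, which encodes p21, is not among the 49 genes, so these values do not cover it. CDKN1C, which encodes the CIP/KIP inhibitor p57, was at 15.8 and 11.4 CPM from 225 reads in each library, with a log2 ratio of -0.47 (-0.74 to -0.19), the lowest of the 48. CDKN2B, which encodes the INK4 inhibitor p15, was at 45.3 and 34.1 CPM with a log2 ratio of -0.41 (-0.57 to -0.25). Its neighbour CDKN2A, which encodes p16 and ARF and lies 7.60 kb away on chromosome 9, was at 243 and 249 CPM with a log2 ratio of 0.04 (-0.03 to 0.10). Reads of CDKN2A transcripts were thus abundant in both libraries, and a gene count does not tell p16 from ARF. CDKN1B, which encodes p27, was at 134 and 132 CPM with a log2 ratio of -0.01 (-0.10 to 0.07). The smaller INK4 genes CDKN2C and CDKN2D both had a log2 ratio of 0.22, and both intervals included 0, with 208 to 406 reads per library, although that of CDKN2C lay above 0 with factors from all genes. CDKN2B held 14.1% (13.1% to 15.2%) of INK4 reads in the vector control and 10.6% (9.89% to 11.4%) in the other library. SKP2, the ubiquitin ligase subunit that marks p27 for decay, had a log2 ratio of 0.03 (-0.11 to 0.17).

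RB1, the retinoblastoma tumour suppressor, was lower in the PRMT5 overexpression library, at 26.9 and 21.3 CPM from 384 and 419 reads, a log2 ratio of -0.34 (-0.54 to -0.14). The count table places RB1 (ENSG00000139687) on chromosome 13, 48303751 to 48481986. The pocket proteins RBL1 (p107) and RBL2 (p130) had log2 ratios of 0.06 and -0.03, and both intervals included 0. RBL2 gave 79.1% and 79.9% of pocket protein reads, and RB1 gave 8.97% (8.13% to 9.86%) and 7.28% (6.62% to 7.98%).

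E2F4, the main repressor E2F of resting cells, was the 1 E2F gene of 8 with an interval apart from 0. Over all genes, 14.3% had an interval above 0 and 14.3% one below. E2F4 stood at 74.5 CPM in the vector control against 55.0 CPM under PRMT5 overexpression, from 1062 and 1084 reads, with a log2 ratio of -0.44 (-0.56 to -0.31). E2F4 (ENSG00000205250, chromosome 16, 67192169 to 67198918) has no exon base in common with another counted gene. The activators E2F1, E2F2 and E2F3 had log2 ratios of 0.06, -0.03 and -0.05, with 209 to 410 reads per library. E2F5, the partner repressor, was at 0.19, and E2F6, E2F7 and E2F8 at 0.02, 0.02 and -0.0091. E2F5 shares 969 exon bases with C8orf59 on the other strand, and summed with it the E2F5 log2 ratio was 0.14 (-0.0099 to 0.29). The DP subunits TFDP1 and TFDP2, with which E2F proteins pair, were at 0.0032 and -0.0043, and their intervals reached no farther than 0.12 on either side of 0. The intervals of the E2F genes other than E2F4 reached from -0.29 (E2F8) to 0.53 (E2F5), so differences inside them were not detectable at this depth.

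Of the switches on CDK1, the inhibitory kinase WEE1 was lower, at 88.6 and 71.7 CPM with a log2 ratio of -0.31 (-0.42 to -0.20). The phosphatases that remove its marks, CDC25A, CDC25B and CDC25C, had log2 ratios of -0.00022, 0.05 and 0.0019. CDC25B, the second highest of the genes per kb of merged exons, had an interval of 0.0011 to 0.11 that included 0 under another 2 scalings. By deposited FPKM, CDC25B stood below CCND1, at 38.6 and 39.3 against 39.2 and 49.1, so its rank is uncertain. CDC25B and WEE1 log2 ratios differed by 0.36, with an interval of 0.24 to 0.48. CDKN3 was lower too, at 70.3 and 60.5 CPM with a log2 ratio of -0.22 (-0.34 to -0.09). CKS2 was at 96.6 and 107 CPM with a log2 ratio of 0.15 (0.05 to 0.25), and its twin CKS1B, at 0.0010, did not differ beyond counting error (-0.11 to 0.11).

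Levels between genes were compared as CPM per kb of merged exons. CKS2 stood first at 158 and 175, followed by CDC25B at 79.3 and 82.4 and CCND1 at 56.6 and 72.2, and CCNE2 stood last of the 48 at 1.39 and 1.29. CCNB1, CDKN2A and CDK1 lay next to each other between 50.4 and 62.5, close to CCND1 in the vector control. By merged exon length, CCND1 was 12.5 times CCND3 in the vector control and 22.0 times in the PRMT5 overexpression library. The length behind the deposited FPKM was 0.649 to 2.94 times the merged exon length among these genes. The order of near neighbours is uncertain by that much. For CCND1 the FPKM length was 1.46 times the merged exon length, and for CCND3 2.60 times. The multiples between CCND1 and CCND3 thus depend on the length used, and they are larger by deposited FPKM in each library.

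**Figure D3:**
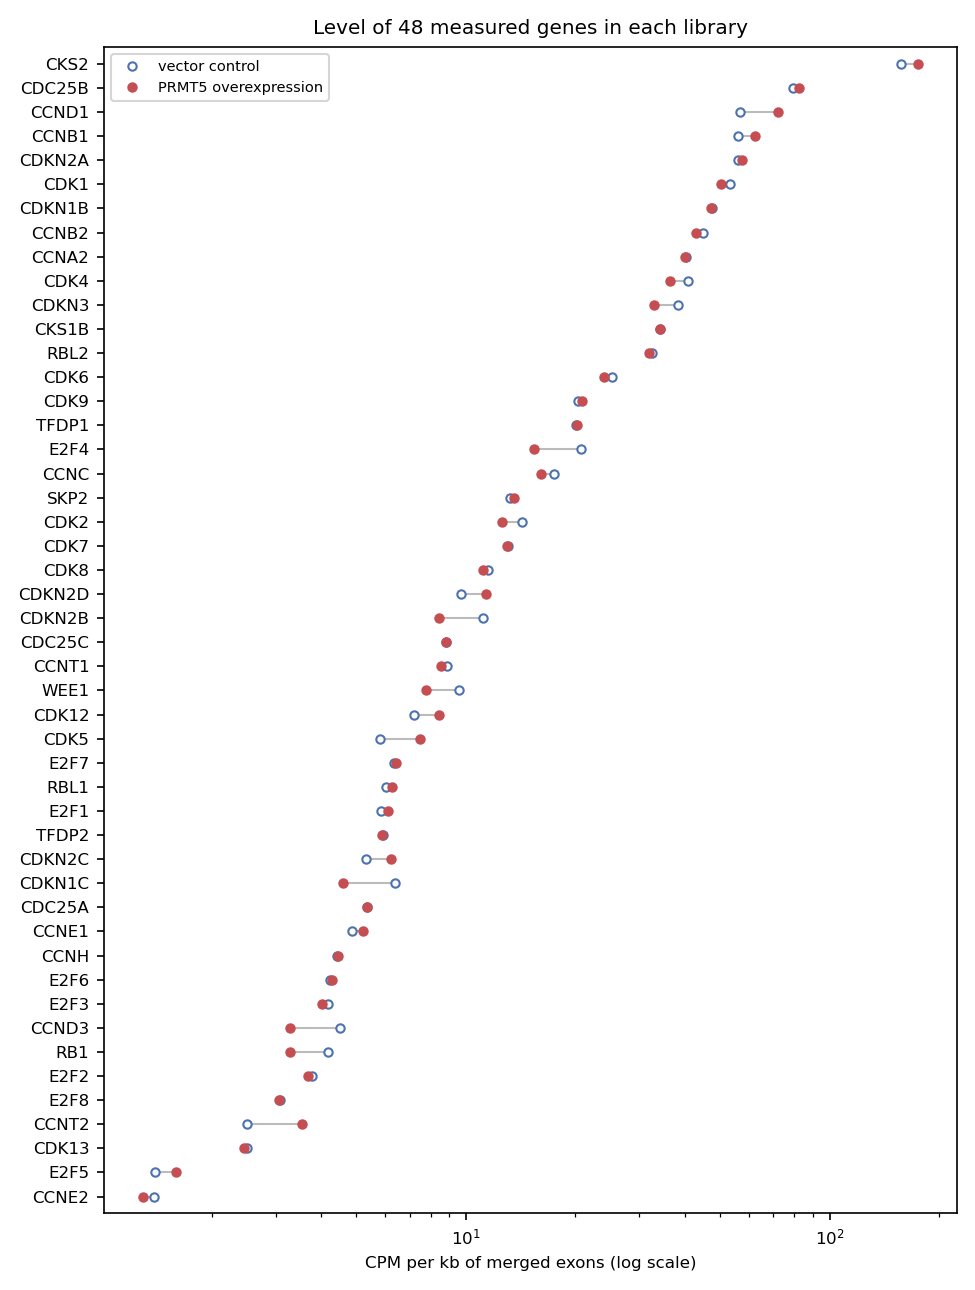
Level of the 48 measured genes in CPM per kb of merged exons (x axis, log scale), with open circles for the vector control and filled circles for PRMT5 overexpression, ordered by the mean. The order runs from CKS2 at 158 and 175 to CCNE2 at 1.39 and 1.29, and most pairs of circles nearly coincide.

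**Figure D4:**
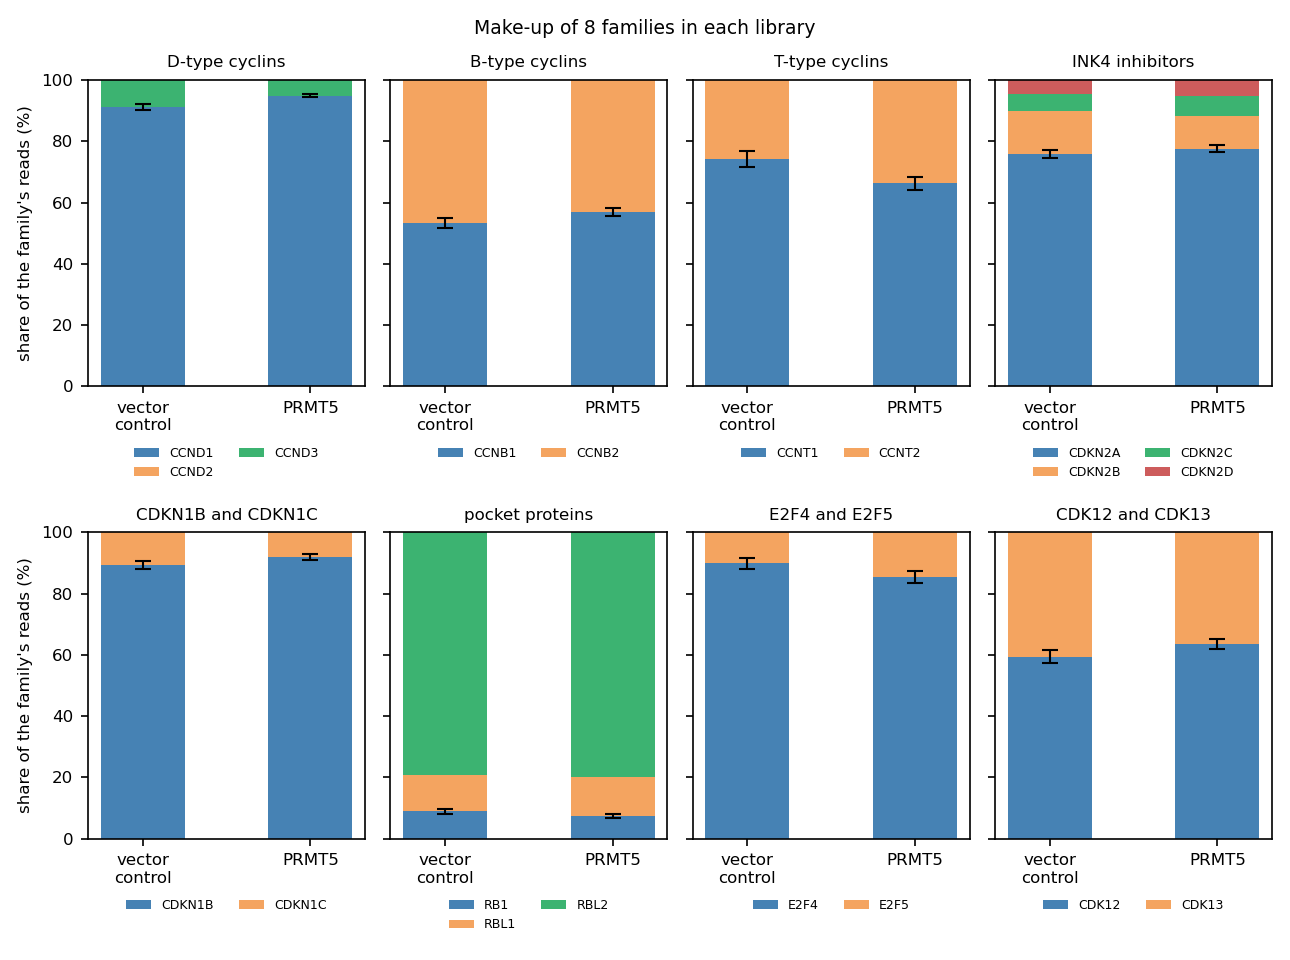
Share of a family's reads (y axis, %) held by each gene in the vector control and PRMT5 overexpression libraries for 8 families, with error bars for the 95% counting interval of the lowest segment. With each gene counted alone, the widest shift is in the T-type cyclins, where CCNT2 goes from 25.7% to 33.7%. E2F5 had 118 and 186 reads alone and 611 and 930 once summed with C8orf59, which shares its exon bases. The shares of E2F4 and E2F5 are thus uncertain.

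Reads of 14 of the 48 genes could in part belong to a counted gene that shares exon bases on the other strand. Once summed with that gene, all 14 stayed on the same side of 0, or with an interval that included it, and CDK5 was the 1 gene whose value left its counting interval. Sequence shared with other genes went past 5% of the longest transcript for 4 of the 48. By 50-base stretches, CKS1B had 12.5%, E2F6 12.0%, CDK7 6.38% and TFDP1 6.15% of their longest transcript elsewhere, so their reads are less certain. Some others had smaller shares, such as CDKN2A at 2.42% and CDKN2B at 0.775%, each with the other as its top match.

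Other genes of the pathway were read from 8 lists. Of 149 further genes, 145 had 10 or more reads, 1 was higher and 5 lower by 1.5-fold (7.06% and 5.33% among all genes), and the median log2 ratio was 0.0047. The 32 listed E2F target genes of S phase had a median of -0.0043 (0.02 with factors from all genes and no floor), with intervals above 0 for 7 and below for 5, where 14.3% of all genes lay on each side. The 27 target genes of G2 and mitosis had a median of 0.05, with 9 intervals above and 6 below 0. Again 14.3% of all genes lay on each side, and 16.8% above and 18.0% below among genes of like read number. These 27 genes had a median of 1982 reads, and the S phase targets 1024, against 629 for genes of like range. Intervals of both lists were thus narrower. AURKA, the spindle pole kinase, was the 1 of the 27 past 1.5-fold at 79.0 and 119 CPM, with a log2 ratio of 0.59 (0.49 to 0.70).

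The lists of regulators that act on the engine had medians between -0.08 and 0.03. The 8 genes of the DREAM and MuvB complex, in which E2F4 and RBL2 repress cell cycle genes, had a median of -0.08, and 23 genes of ubiquitin ligases that clear cyclins and inhibitors had a median of 0.03. The 10 measured checkpoint kinases and WEE1 relatives had a median of 0.00013 (-0.03 with total counts). The 12 other cyclins and 14 other CDKs were both at -0.03, but the other CDKs were at 0.15 with a floor of 50 reads and the other cyclins at 0.01 with no floor. Partner proteins of cyclins and CDKs had a median of 0.01 over 20 genes (-0.02 with total counts). CDK5RAP3 among them was at 124 and 35.0 CPM with a log2 ratio of -1.83, and at -0.02 once summed with the genes that share its exons, so its reads are uncertain.

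**Figure D5:**
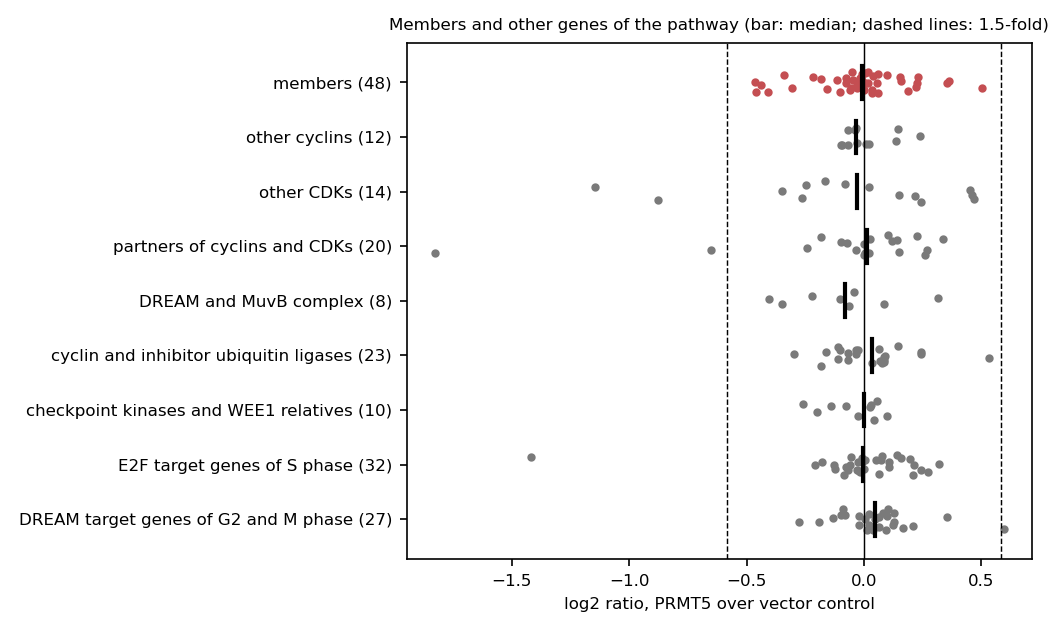
Log2 ratios (x axis) of the 48 genes, in red, and of 8 lists of other pathway genes, in grey, with the number measured in brackets, bars for medians and dashed lines at 1.5-fold. All list medians lie between -0.08 and 0.05, and the points beyond 1.5-fold include CDK5RAP3 at -1.83 and AURKA at 0.59.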

How the data were processed

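Polyadenylated RNA of 1 vector control and 1 PRMT5 overexpression library was analysed, grouped by the genotype in the labels. Per the submitters' processing notes, the builds were GRCh38 and hg38 and the tools HISAT2 2.1.0, CASAVA 1.8, edgeR and StringTie 1.3.4b, whose roles are not stated. The sources used here do not give the strand setting of the counting. The raw counts per gene were used as deposited by the authors. The FPKM values deposited by the authors served as an alternative and for lengths only.

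Counts of rows with 1 symbol were summed (221 symbols had more than 1 row) and scaled by TMM (edgeR 4.0.16, R 4.3.3; factors 1.01 and 0.990) on the 17777 genes past a floor of 10 reads in either library. The written plan took the factors from all genes (1.02 and 0.982). That was changed after the plan, once these were seen to differ from the factors of an earlier treatment of these data, and it decides whether the intervals of CCNC, CDK1, CDK6 and CDKN2C include 0. Both versions are reported. Log2 CPM used a prior count of 1. Intervals are 95% exact binomial (Clopper-Pearson) intervals, scaled by the library sizes; differences between log2 ratios used exact conditional odds ratios. They cover counting error only. Exon sharing, merged exon length and shared sequence used GENCODE release 29, where 56604 of 58302 genes had the same start and end. Motifs were searched in RefSeq promoters (GRCh38.p14).

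The genes and lists were chosen with earlier results of these data known. The text names all 49 genes, PRMT5, genes that share their exons, and pathway genes past 1.5-fold at 5 CPM or more, up to 4 per list; 1 gene that this rule names is not reported here. MYC and the genes of the closing section were added after their values were seen. The procedure was tested on simulated counts drawn with counting error alone, so that test does not cover the spread between cultures. Alternatives were size factors from DESeq2 1.42.0, total counts, factors from all genes with no floor, a 50-read floor, 1 row per symbol (the highest), prior counts of 5 and 0.1, FPKM with a pseudocount of 1, sums with exon-sharing genes and a 2-fold threshold. Calculations ran in Python 3.11.15 with scipy 1.17.1, pandas 2.3.3, matplotlib 3.10.9 and numpy 2.4.6.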

Additional observations from a re-analysis of the deposited data

How the results depend on the processing

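The count of 0 genes higher by 1.5-fold held under every alternative run, and that of 0 lower under all but 1: with no floor, 1 gene was lower, which is CCND2 with 1 and 0 reads. The median log2 ratio of the measured genes ran from -0.04 with total counts to 0.01 with no floor, where CCND2 joins the 48. Of 432 recalculated values of single genes, 430 stayed within their counting intervals; the others are CCNT2 at 0.28 with FPKM and CDK5 at 0.10 once summed with SLC4A2. All 40 recalculated list medians moved by less than the median distance from a gene's value to the bound of its interval in that list, a wide margin, since that of the other CDKs went from -0.03 to 0.15 with a floor of 50 reads. The sign of the median changed under at least 1 setting for the other cyclins, other CDKs, partners, checkpoint kinases and S phase targets. The number of intervals above 0 was 6 to 8 and below 0 was 9 to 12 over the 4 scalings, with 8 and 9 under the planned factors from all genes, and 5 and 9 among the 34 genes that share no exon base, a setting chosen after seeing the data, like the background of genes of like read number. Shares within families changed beyond their counting intervals in 24 of 128 recalculations, those summed with exon-sharing genes. Genes with few reads, such as CCNE2 and E2F5, have intervals too wide to show a 1.1-fold difference. No paired analysis was possible because there is just 1 library in each group.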

Other observations

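Some pathway genes that stayed under 1.5-fold lay beyond counting error and are given as values, chosen after they were seen. SKP1, the adaptor of SCF ubiquitin ligases to which SKP2 belongs, had a log2 ratio of 0.53 (0.44 to 0.62) from 1619 and 3233 reads, and 0.50 once summed with the genes that share its exons. CDK18, a kinase of the PCTAIRE group, was at 0.46 (0.32 to 0.61) from 595 and 1132 reads. RBBP4, a histone-binding subunit of the MuvB core, was at 0.32 (0.22 to 0.41), while LIN54, the MuvB subunit that contacts the CHR, was at -0.35 (-0.57 to -0.14). HEXIM1, which holds P-TEFb inactive and so acts on CCNT2 and CDK9, was at 0.26 (0.16 to 0.36). CDC34, the ubiquitin-conjugating enzyme of SCF ligases, was at -0.30 (-0.45 to -0.15). CCNB1 and CDK7 are neighbours on chromosome 5, 56.5 kb apart, with log2 ratios of 0.16 and -0.01.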
